A study of Mus musculus with 51 samples.

Results

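Sertoli cell cloned embryos at the 2-cell stage were compared with embryos made by in vitro fertilisation (IVF) at the same stage. The members are the 8 arrays whose labels name these groups, 5 from clones and 3 from IVF embryos, out of 51 in the series, and 18193 genes were measured on each. Each array carried labelled cRNA of 1 whole embryo, collected 32 hours after activation (clones) or after sperm was added (IVF embryos). Per the labels, a clone was a B6D2F1 oocyte that had received the nucleus of a B6CBF1 Sertoli cell, which nurses germ cells in the testis, and an IVF embryo came from B6D2F1 gametes on both sides. Both groups were cultured in KSOM medium, and neither donor age nor the sex of the IVF embryos is given in the labels, while clone nuclei were male. The embryos are labelled as biological replicates, and nothing says whether they came from separate sessions, so p-values measure the spread between single embryos. In a whole embryo, fewer cells that express a gene and less of its RNA per cell cannot be told apart.

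In the mouse the 2-cell stage is when the embryo's own genome is first transcribed on a large scale, while RNA stored in the oocyte is broken down. Nucleoli, where ribosomes are assembled, are inactive in the zygote and mature from precursor bodies as ribosomal RNA synthesis resumes. In a clone the genome to be activated is that of a differentiated cell, which carries somatic chromatin marks and silenced germline genes and lacks the histone marks that the egg places on the maternal genome.

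Among all genes, 339 were lower and 93 higher in clones than in IVF embryos (limma, adjusted p under 0.05), which is 1.86% and 0.511% of those tested. Of these, 305 and 71 differed by at least 2-fold. The 5 clones and the 3 IVF embryos did not overlap in any of the 432 genes. Without regard to the test, the groups did not overlap, with clones below, in 1436 genes (7.89%) and, with clones above, in 734 (4.03%). Values are log2 units centred for each probe set, so they hold no absolute level, and only differences between embryos are read. The median difference over all genes was 0.00, so that a fall is relative to an unchanged median. After quantile normalization 161 genes were lower and 126 higher, and the lower share of the calls was 56.1% in place of 78.5%. Of the 95 genes named here that passed, 33 also passed in all 8 fits that each left out 1 embryo, 10 in 4 to 7, 47 in 1 to 3 and 5 in none.

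The bacterial hybridisation controls, which are spiked in after labelling, lay between 0.573 and 1.22 on the clone arrays and between -0.734 and -0.227 on the IVF arrays. The groups did not overlap in this measure (exact permutation p = 0.0357, two-sided, the smallest that 5 against 3 allows, and 0.107 adjusted over 3 quality measures). When limma took the controls as a covariate, 0 genes passed, and unadjusted p-values under 0.05 numbered 869 with the covariate and 2717 without it. As the controls differ between the groups without overlap, this fit can hardly tell group and controls apart. The loss of calls applies to every gene group below, and the part of the controls in the differences was not tested. The 3′ minus 5′ difference of Actb averaged -0.885 ± 0.481 in clones and -0.169 ± 0.223 in IVF embryos (SD, n = 5 and 3, exact permutation p = 0.0714). The spread of an embryo around its group mean was 0.613 to 0.665 in clones and 0.570 to 0.659 in IVF embryos, and these ranges overlapped.

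Genes were sorted by their course in fertilised embryos with the IVF arrays of the 1-cell and 4-cell stages alone, so that no 2-cell array and no clone entered the sorting. A gene was called rising or falling if the 4-cell stage differed from the 1-cell stage by at least 1 log2 unit with an adjusted p under 0.05, and 2933 genes (16.1%) rose and 3280 (18.0%) fell. Of the rising genes 164 were lower in 2-cell clones (5.59%) and 31 higher (1.06%). Of the falling genes 51 were lower (1.55%) and 20 higher (0.610%), and of the 11980 others 124 were lower (1.04%) and 42 higher (0.351%). Rising genes thus made up 48.4% of all genes that fell in clones. Their median difference was -0.33, against -0.13 for falling genes and 0.01 for the others, and 64.3% of rising genes had a lower mean in clones.

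The place of each embryo between the IVF 1-cell mean, set to 0, and the IVF 4-cell mean, set to 1, was taken as the median over the genes of a class. For rising genes the clones stood at 0.75, 0.74, 0.71, 0.62 and 0.65 and the IVF embryos at 0.74, 0.78 and 0.89. For falling genes the clones stood at 0.85, 0.72, 0.65, 0.59 and 0.76 and the IVF embryos at 0.52, 0.65 and 0.73. The groups overlapped in both classes, so that most of the course of either class had been run in every embryo of both groups. At the 4-cell stage the clones stood between 0.879 and 0.934 for rising genes and between 1.00 and 1.03 for falling genes. The 4-cell IVF arrays had chosen these genes and set the value 1, so these places are no independent comparison with them.

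**Figure D1:**
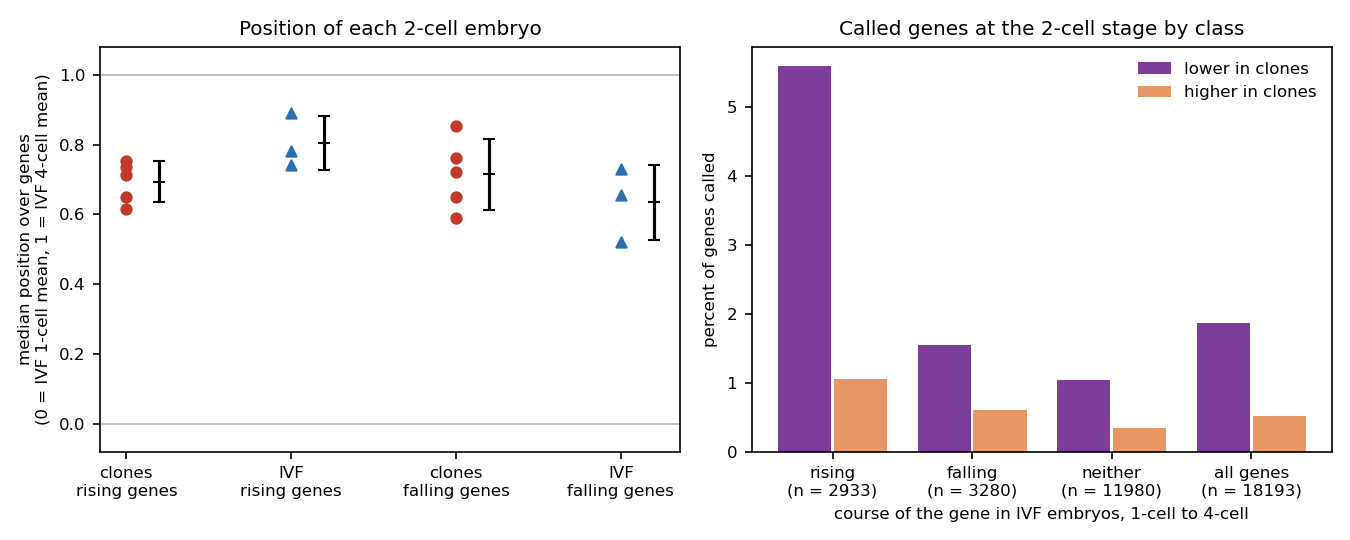
Left, the median position of each 2-cell embryo over rising or falling genes, from the IVF 1-cell mean (0) to the IVF 4-cell mean (1), with the mean and SD beside the points (5 clones, 3 IVF embryos). Right, the percent of genes in each class that were lower or higher in clones, where rising genes have 5.59% lower against 1.86% over all genes.

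Leaving out entries whose symbol is a clone name, the 3 largest falls were those of germline genes. D1Pas1, which encodes a DEAD-box RNA helicase known from the testis, was at -0.10, -0.17, -0.21, -0.07 and 0.21 in the 5 clones and at 5.38, 5.85 and 6.79 in the 3 IVF embryos. All clones lay within a narrow band far below every IVF embryo, with a difference of -6.07 ± 0.30 (SE, 67.2-fold, limma adjusted p = 0.000756). Fmr1nb, an X-linked gene of the cancer-testis kind, which is expressed in germ cells and some tumours, was at -3.33, -3.32, -3.34, -3.61 and -3.42 in clones and at 2.67, 1.34 and 2.26 in IVF embryos. It fell by 5.49 ± 0.28 (adjusted p = 0.000756). Sycp1 encodes a protein of the synaptonemal complex that pairs chromosomes in meiosis. It was at 0.12, -0.95, -1.002, -2.28 and -3.10 in clones and at 2.65, 2.96 and 4.23 in IVF embryos. The clones spread over more than 3 log2 units here and stayed below the lowest IVF embryo (-4.72 ± 0.79, adjusted p = 0.0376).

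The promoters of these 3 genes are shown because each holds the 10-base run TCTCGCGAGA in the 250 bases before the gene start. Of all 10-base runs that read the same on both strands, it was the one that the most promoters of the 15 largest falls shared, so it was chosen on these genes and their count supports nothing. They are from RefSeq, build GRCm38.p6, 5′ to 3′ on the gene's strand, with the run in capitals. The D1Pas1 sequence is chr1:186967166-186967415 on the plus strand, that of Fmr1nb chrX:68761589-68761838 on the plus strand and that of Sycp1 chr3:102936101-102936350 on the minus strand.
D1Pas1: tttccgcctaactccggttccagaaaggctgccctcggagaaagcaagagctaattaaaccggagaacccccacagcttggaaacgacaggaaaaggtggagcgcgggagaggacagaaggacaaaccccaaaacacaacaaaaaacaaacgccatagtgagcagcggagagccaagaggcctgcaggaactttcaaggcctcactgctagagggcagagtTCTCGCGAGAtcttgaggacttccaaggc
Fmr1nb: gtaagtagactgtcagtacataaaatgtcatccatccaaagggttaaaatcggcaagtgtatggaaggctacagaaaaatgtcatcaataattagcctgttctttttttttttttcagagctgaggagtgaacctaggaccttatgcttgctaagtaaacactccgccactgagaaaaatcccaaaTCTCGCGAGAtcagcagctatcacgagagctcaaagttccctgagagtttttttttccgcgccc
Sycp1: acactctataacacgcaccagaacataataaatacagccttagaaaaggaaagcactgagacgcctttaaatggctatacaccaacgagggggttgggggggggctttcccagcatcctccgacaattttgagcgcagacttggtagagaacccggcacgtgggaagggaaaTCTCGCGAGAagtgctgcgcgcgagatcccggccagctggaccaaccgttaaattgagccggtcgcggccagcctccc

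The run starts 29, 64 and 78 bases before the gene start. Without the 15 genes it was chosen on, it was present in 5 of the 268 genes that fell and have a promoter in the RefSeq table (1.87%), in 0 of 73 that rose and in 104 of 14353 measured genes (0.725%). It was in 128 of all 32851 promoters of the table (0.390%). Among genes that rise in IVF embryos, again without the 15, it was in 3 of 124 that fell in clones (2.42%) and in 29 of 2273 that did not (1.28%). The 5 that fell are shown by the bases around the run, all in the 250 bases before the start used for the promoter. For Nol9 that start lies inside the gene, whose first RefSeq position is 152039261, so the stretch shown lies inside it too.
Spsb3, chr17:24886610-24886639: agcagtcctgTCTCGCGAGAcccgcccccg
Slc15a4, chr5:127617393-127617420: gaactcgctgTCTCGCGAGAgttgggct
Atp5pb, chr3:105959441-105959470: tcgctctactTCTCGCGAGAattgtgtcta
Nol9, chr4:152039305-152039334: ggtgacgcggTCTCGCGAGAtcgtcccgcc
Tcf25, chr8:123373675-123373704: agggcccgacTCTCGCGAGAgctccctggg

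Spsb3 and Tcf25 are on the plus strand with Nol9, and Slc15a4 and Atp5pb on the minus strand. Their differences in clones were smaller, between -2.26 ± 0.38 for Spsb3, a substrate adaptor of a ubiquitin ligase, and -1.27 ± 0.19 for Tcf25. Promoters of genes that fell also held more CG pairs than those of all genes, with a median of 17 against 14, and genes that rose had 18. The 6-base E-box CACGTG, which does not overlap the run, was in 15.2% of genes that fell, 11.0% of those that rose and 8.74% of all measured genes. Among genes that rise in IVF embryos it was in 17.4% of those that fell in clones and 11.7% of those that did not. These matches describe the sequences and were not tested.

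Of 58 germline and meiotic genes 4 fell and 0 rose, or 6.90% against 1.86% of all genes, and the median difference was -0.28 against 0.00. Beside D1Pas1 and Sycp1 these were Mov10l1 and Tex12. Mov10l1, a helicase needed to make piRNAs, which hold transposons in check in germ cells, was at -0.01, -0.40, -0.16, -0.41 and -0.10 in clones and at 1.68, 2.73 and 3.41 in IVF embryos (-2.82 ± 0.36, adjusted p = 0.0192). Tex12, a further component of the synaptonemal complex, fell by 2.28 ± 0.32 (adjusted p = 0.0246). In the 8 fits that each left out 1 embryo, D1Pas1 and Fmr1nb passed in all 8, Mov10l1 in 5, Tex12 in 4 and Sycp1 in 1.

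In a list of 30 genes, drawn up for cancer-testis genes and the Xlr family and nearly all X-linked, 4 fell and 0 rose. That is 13.3% lower against 1.86% of all genes. Mageb16 of the MAGE family was at -4.30, -4.50, -4.51, -4.50 and -4.50 in clones and at 0.05, -1.20 and -0.94 in IVF embryos. Its clones were nearly alike and all below the IVF embryos (-3.77 ± 0.27, adjusted p = 0.00331). Gpr50 was counted on this list although it encodes an orphan receptor related to the melatonin receptors. It was at -0.04, 0.00, -0.05, -0.08 and 0.66 in clones and at 5.27, 4.84 and 3.61 in IVF embryos (-4.47 ± 0.39, adjusted p = 0.00651). The remaining member, Mageb3, which lies on chromosome 2 and not on the X, fell by 1.67 ± 0.27 (adjusted p = 0.0347). The list's median difference was -0.19.

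Over the whole X chromosome, 14 of 617 genes fell (2.27%) and 0 rose, a share close to the 1.86% of all genes. Beyond the cancer-testis list they included Trap1a, an X-linked gene of tumours and extraembryonic tissue. It was at -0.83, -0.83, -0.71, -0.68 and -0.13 in clones and 4.39, 3.74 and 1.51 in IVF embryos (-3.85 ± 0.63, adjusted p = 0.0351). Ddx3x, the X-linked helicase gene of the same family as D1Pas1, was named after its values were seen. It was at -0.13, 0.16, -0.21, -0.06 and -0.25 in clones and at 1.12, 0.98 and 0.98 in IVF embryos, and fell by 1.12 ± 0.10 (adjusted p = 0.00651). The 2 genes are close in sequence, and whether their probe sets share signal was not tested.

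Xist, the RNA that silences an X chromosome, was at -0.27, -4.89, -1.60, -0.85 and -1.66 in clones and at -4.48, -4.64 and -4.74 in IVF embryos. All clones but replicate 2 were above the IVF embryos, the groups overlapped, and the difference of 2.77 ± 1.02 did not pass the test (adjusted p = 0.266). None of the 11 X inactivation genes passed, with a median difference of 0.03, and Rlim, a ubiquitin ligase that activates Xist, had the smallest p at -0.92 ± 0.28 (adjusted p = 0.174). Likewise 0 of 7 Y-linked genes passed, with a median of 0.05. Eif2s3y, a Y-linked translation factor gene also named after its values were seen, was at -1.15, -0.88, 0.63, -0.19 and -0.18 in clones and at -5.44, -1.67 and 0.07 in IVF embryos, and these overlapped (adjusted p = 0.571). Uba1y, a ubiquitin-activating enzyme gene, differed by 2.48 ± 1.18 and Usp9y, a deubiquitinase gene, by -2.15 ± 0.87 (adjusted p = 0.420 and 0.320).

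**Figure D2:**
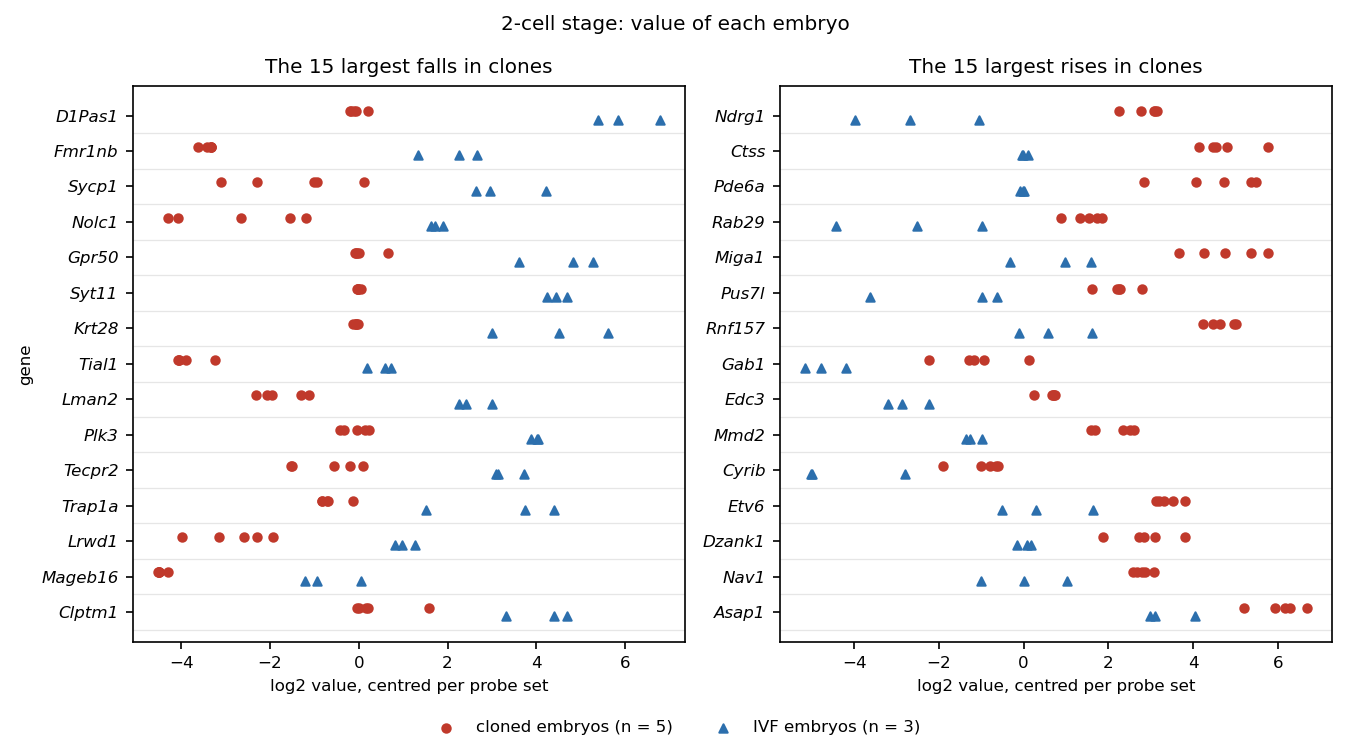
The log2 value of each 2-cell embryo, centred per probe set, for the 15 largest falls and the 15 largest rises, with 5 clones as red circles and 3 IVF embryos as blue triangles in each row. Only genes whose groups do not overlap could enter, so the gap in every row follows from the choice. D1Pas1 has its clones between -0.21 and 0.21 and its IVF embryos between 5.38 and 6.79.

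Each list of ribosome assembly had members that fell. Of 43 factors of the large subunit 7 fell and 1 rose, or 16.3% and 2.33% against 1.86% and 0.511% of all genes. The median difference was -0.87, with 35 of 43 below 0. Nsa2, an early pre-60S factor, was at -1.77, -1.72, -0.82, -1.91 and -1.34 in clones and at 2.08, 2.21 and 2.28 in IVF embryos. Its groups lay over 2 log2 units apart (-3.70 ± 0.25, adjusted p = 0.00255). Bop1 and Wdr12, partners in the PeBoW complex that processes the large subunit's RNA, fell by 2.39 ± 0.32 and 1.76 ± 0.28. Bop1 was at 0.89, -0.14, 0.65, -0.09 and 0.00 in clones and at 2.23, 2.60 and 3.10 in IVF embryos. Ddx54, an RNA helicase, fell by 2.10 ± 0.31, Nop2, an rRNA methyltransferase, by 1.86 ± 0.26, Nol9, a polynucleotide kinase, by 1.50 ± 0.22 and Ddx51, a helicase, by 1.22 ± 0.22. The adjusted p of these 6 lay between 0.0214 and 0.0496. Nsa2, Bop1, Wdr12, Ddx54, Nop2 and Nol9 are among the genes that rise in IVF embryos, of which 5.59% were lower and 1.06% higher in clones. Mak16 was the member that rose (0.45 ± 0.08, adjusted p = 0.0485). Other probe sets went the other way by up to 0.51 for Nsa2, 0.47 for Nol9, 0.11 for Bop1 and 0.01 for Wdr12. After quantile normalization 1 large-subunit factor fell and 0 rose, with a median of -0.68.

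In the small-subunit processome and 90S particle 4 of 48 members fell and 1 rose, or 8.33% and 2.08% against 1.86% and 0.511% of all genes, with a median of -0.58. Imp4, which ties the U3 snoRNA to the pre-rRNA, was at 0.02, -0.09, -0.25, 0.00 and -0.30 in clones and at 1.00, 0.81 and 1.12 in IVF embryos (-1.10 ± 0.10, adjusted p = 0.00702). Rrp9, a U3 particle protein, fell by 2.37 ± 0.36, Rrp7a by 2.06 ± 0.35 and Pno1, a late 40S factor, by 0.86 ± 0.14. Rrp9, Rrp7a and Pno1 are among the genes that rise in IVF embryos, of which 5.59% were lower in clones. Tsr1, a cytoplasmic 40S factor, went up, at 1.28, 1.04, 1.05, 1.06 and 1.23 in clones and -0.53, -0.26 and 0.16 in IVF embryos (1.34 ± 0.15, adjusted p = 0.0136). After quantile normalization 1 member fell and 1 rose, with a median of -0.35.

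Among 16 genes of snoRNA particles and the nucleolar scaffold 3 fell and 0 rose, with a median of -0.70. The 3 are 18.8% of the list, against 1.86% lower over all genes. Nolc1, a scaffold protein of the nucleolus, was at -1.56, -4.30, -2.66, -1.18 and -4.08 in clones and at 1.89, 1.73 and 1.64 in IVF embryos (-4.50 ± 0.81, adjusted p = 0.0460). Its other 2 probe sets went the opposite way, by 0.41 and 0.83, so the fall rests on 1 probe set. Nufip1, which helps to build box C/D particles, fell by 1.32 ± 0.21 and Nop53 by 1.27 ± 0.22. Nufip1 and Nop53 are among the genes that rise in IVF embryos, of which 5.59% were lower in clones. In the RNA polymerase I machinery, which transcribes the ribosomal RNA genes, 1 of 12 fell (8.33% against 1.86% of all genes). It was Taf1a of the promoter selectivity factor (-1.20 ± 0.19, adjusted p = 0.0343), and 11 of 12 were below 0 with a median of -0.95. After quantile normalization neither of these lists had a member past the test.

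Genes of translation itself also had members that fell. Of 35 translation initiation factors 3 fell and 0 rose, or 8.57% lower against 1.86% of all genes, with a median of -0.49. All 3 are subunits of eIF3, the complex that recruits the small subunit to mRNA. Eif3h was at -0.94, -0.71, -1.13, -1.38 and -1.19 in clones and at 0.50, 0.59 and 0.68 in IVF embryos (-1.66 ± 0.15, adjusted p = 0.00677). Eif3f fell by 0.86 ± 0.11 and Eif3i by 1.54 ± 0.28. Eif3h, Eif3f and Eif3i are among the genes that rise in IVF embryos, of which 5.59% were lower in clones. Of 19 cytosolic tRNA synthetases Sars, for serine, fell (-2.13 ± 0.28, adjusted p = 0.0198), or 5.26% against 1.86% of all genes. The median of these synthetases was -0.75. Of 43 cytosolic ribosomal protein genes 4 fell and 0 rose (9.30% lower against 1.86% of all genes), Rpl8 by 1.91 ± 0.17, Rpl19 by 1.50 ± 0.24, Rpl6 by 1.38 ± 0.25 and Rps10 by 1.30 ± 0.20. That list's median was -0.11. After quantile normalization it was 0.04, with 1 member lower and 1 higher.

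**Figure D3:**
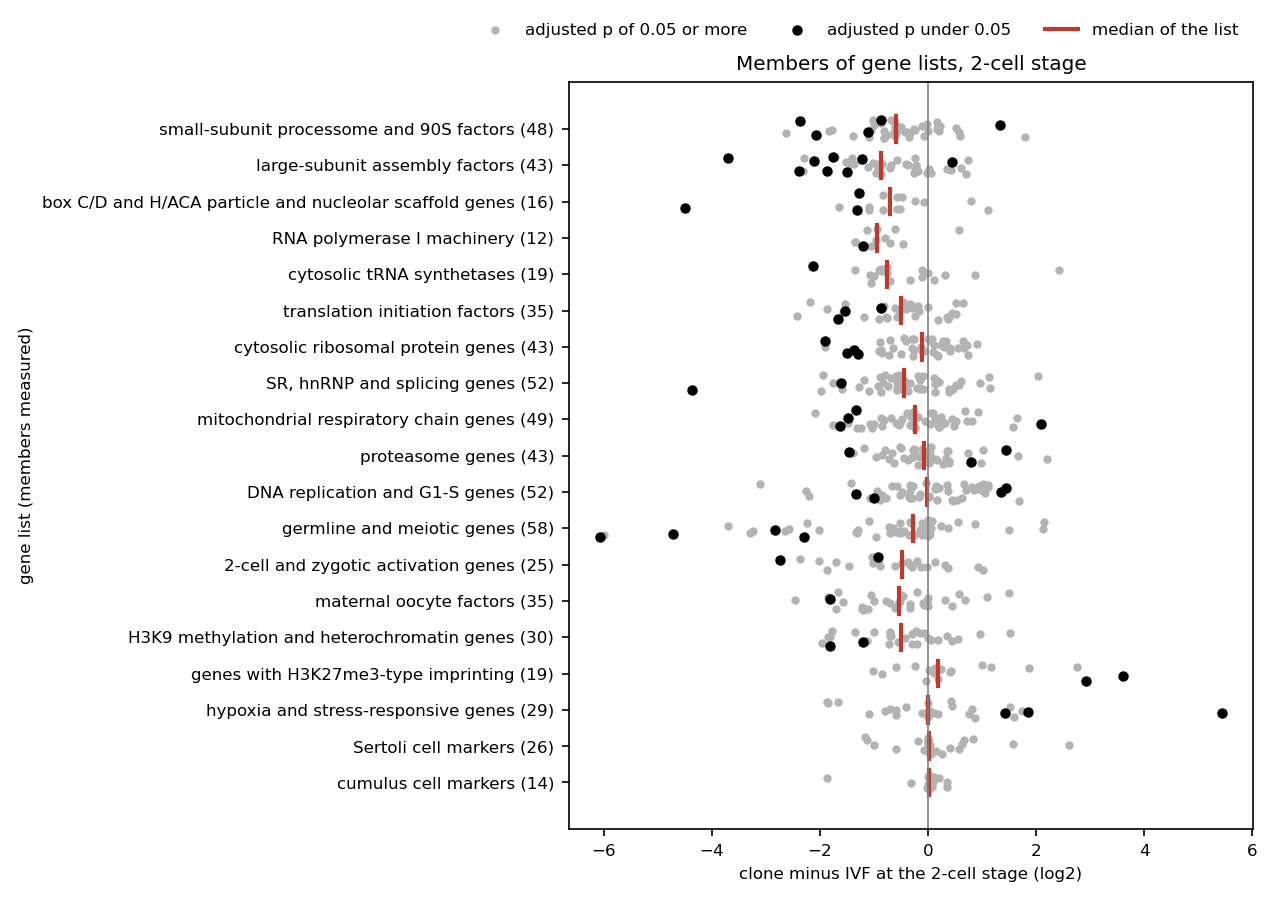
Each point is 1 gene of a list, placed by its clone minus IVF difference at the 2-cell stage in log2 units, with black points past an adjusted p of 0.05 and red bars at the list's median. The lists of ribosome assembly have medians between -0.58 and -0.95, while the Sertoli and cumulus cell markers have medians of 0.02.

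Genes of RNA processing and decay moved both ways. Tial1, an RNA-binding protein that steers splicing and translation, was at -3.88, -4.04, -4.06, -3.24 and -4.04 in clones and at 0.20, 0.58 and 0.73 in IVF embryos (-4.36 ± 0.23, adjusted p = 0.000756). Its other probe sets fell less, by 1.39 without overlap and by 0.88, 0.78 and 0.64 with overlap. On the probe set used, the 1-cell means were -4.10 ± 0.13 in clones and -4.23 ± 0.16 in IVF embryos (SD, n = 5 and 3). There the 2-cell clones were close to the level of the stage before. Snrpf, a core protein of the splicing snRNPs, fell by 1.61 ± 0.15 (adjusted p = 0.00677). They were the 2 of 52 splicing genes that fell (3.85% against 1.86% of all genes), 0 rose, and the median was -0.44. Of 54 genes of mRNA decay and deadenylation 2 fell and 1 rose, or 3.70% and 1.85% against 1.86% and 0.511% of all genes. Their median was 0.08. Edc3, an enhancer of decapping, was at 0.74, 0.69, 0.66, 0.72 and 0.25 in clones and at -2.88, -3.21 and -2.23 in IVF embryos, and it rose by 3.38 ± 0.23 (adjusted p = 0.00255). Cnot8 and Cnot3, a deadenylase and a scaffold subunit of the CCR4-NOT complex, fell by 1.53 ± 0.17 and 1.80 ± 0.24. Another probe set of Cnot3 differed by 0.20 the other way. Pcf11, a factor that ends transcription, fell by 3.57 ± 0.50 (adjusted p = 0.0242), while its other 3 probe sets differed by -2.94, -2.02 and 0.95.

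Chromatin genes with a fall included the pair that silences transposons and guards imprints. Trim28, the corepressor of KRAB zinc finger proteins, was at -0.68, -0.68, -0.67, -0.74 and -0.78 in clones and at 1.20, 1.00 and 1.09 in IVF embryos. The spread within each group was at most 0.10 (SD), and the fall of 1.81 ± 0.05 had an adjusted p of 5.22e-05. A further probe set of Trim28 differed by -0.08, with groups that overlapped. At the 1-cell stage Trim28 had gone the other way: clones averaged -0.89 ± 0.45, against -4.05 ± 0.54 in IVF embryos (SD, n = 5 and 3), and the change of the difference was -4.97 (adjusted p = 5.88e-09). Setdb1, the H3K9 methyltransferase that Trim28 recruits, was at -0.52, -0.38, -0.74, -0.80 and -0.96 in clones and at 0.68, 0.48 and 0.42 in IVF embryos (-1.21 ± 0.14, adjusted p = 0.0147). Its other 2 probe sets differed by 0.11 and 0.47 the other way, with groups that overlapped. These were the 2 of 30 genes of H3K9 methylation and heterochromatin that fell (6.67% against 1.86% of all genes), 0 rose, and the median was -0.49.

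Of 33 Polycomb and H3K27 genes 2 fell and 1 rose, or 6.06% and 3.03% against 1.86% and 0.511% of all genes. Their median was -0.40. Bmi1, a subunit of the H2A ubiquitin ligase complex PRC1, rose by 1.14 ± 0.16, while Phc2 of PRC1 and L3mbtl2 of a variant PRC1 fell by 0.97 ± 0.15 and 1.03 ± 0.17 (adjusted p between 0.0249 and 0.0343). Another probe set of Phc2 differed by 0.46 the other way. Among 34 histone deacetylase and acetyltransferase genes Mta2 of the NuRD complex fell by 1.41 ± 0.20. It is 2.94% of that list, against 1.86% of all genes, and the median was -0.19. None of 20 genes of DNA methylation, Tet oxidation and base repair passed, with 0 at an unadjusted p under 0.05. Dppa3, which shields the maternal genome from demethylation, differed by -0.33 ± 0.14 (adjusted p = 0.353), and the maintenance methyltransferase gene Dnmt1 by -0.70 ± 0.42 (adjusted p = 0.571).

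Genes whose maternal allele is silenced by H3K27me3, the mark placed in the oocyte, had 2 of 19 members higher, 10.5% against 0.511% of all genes, and 0 lower, with a median of 0.18. Gab1, an adaptor of growth factor receptors, was at -1.16, -1.29, 0.12, -0.93 and -2.24 in clones and at -4.79, -5.16 and -4.19 in IVF embryos. Every clone was above every IVF embryo, by 3.61 ± 0.52 (adjusted p = 0.0249), and its other 2 probe sets were higher by 3.26 and 0.55 without overlap. Etv6, a transcriptional repressor of the ETS family, was at 3.81, 3.30, 3.54, 3.20 and 3.12 in clones and at -0.51, 0.28 and 1.64 in IVF embryos (2.92 ± 0.47, adjusted p = 0.0343). A second probe set of Etv6 differed by 0.03, with groups that overlapped. In the 8 fits that each left out 1 embryo, Gab1 passed in 2 and Etv6 in 1. In blastocysts Gab1 averaged 2.62 ± 0.23 in clones and 1.17 ± 0.05 in IVF embryos, and Etv6 -1.16 ± 0.55 in clones and -1.36 ± 0.11 in IVF embryos (SD, n = 5 and 3).

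In a list of 25 genes of the 2-cell stage and of zygotic activation 2 fell (8.00% against 1.86% of all genes) and 0 rose. Of the 25, 20 were below 0, and the median was -0.49. Rfpl4b was at 2.12, 3.07, 3.96, 3.66 and 2.96 in clones and at 6.02, 6.12 and 5.53 in IVF embryos (-2.74 ± 0.42, adjusted p = 0.0311). Klf17, a zinc finger transcription factor of early embryos, was at 0.66, 0.49, 0.62, 0.28 and 0.75 in clones and at 1.31, 1.82 and 1.32 in IVF embryos (-0.93 ± 0.16, adjusted p = 0.0401). Its mean was higher before this stage, at 2.19 in oocytes and 1.88 in 1-cell IVF embryos, than in 2-cell IVF embryos (1.48). The list averaged 2.23 to 2.63 over the clones and 2.99 to 3.22 over the IVF embryos, as means of centred values, and these ranges did not overlap. In the 8 fits that each left out 1 embryo, Rfpl4b passed in 2 and Klf17 in 0. Of 35 maternal oocyte factors Trim28 alone fell (2.86% against 1.86% of all genes) and 0 rose. Their median was -0.53, with 29 of 35 below 0. None of 25 pluripotency genes passed, with 2 at an unadjusted p under 0.05. Nanog was at -4.89, -4.54, -3.53, -4.90 and -3.77 in clones and at -4.87, -4.50 and -3.82 in IVF embryos, so that the groups overlapped fully. Pou5f1 differed by -0.86 ± 0.48 (adjusted p = 0.524), and Klf5, a factor of the first lineages, by -1.64 ± 0.46 (adjusted p = 0.150).

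Cell cycle genes moved in both directions. Of 52 DNA replication and G1-S genes 2 fell and 2 rose, or 3.85% each against 1.86% and 0.511% of all genes. Their median of -0.01 turned to 0.06 after quantile normalization. Dbf4, the activator of the CDC7 kinase at replication origins, was at 1.29, 1.33, 1.34, 1.16 and 1.45 in clones and at 2.47, 2.32 and 2.15 in IVF embryos and fell (1.32 ± 0.10 in clones and 2.32 ± 0.16 in IVF embryos, SD, n = 5 and 3, adjusted p = 0.00661). Ccne1, cyclin E1, fell by 1.32 ± 0.16, while Pcna, the sliding clamp, rose by 1.35 ± 0.20 and Orc2, of the origin recognition complex, by 1.45 ± 0.26. In 35 mitosis and spindle genes Birc5, survivin, fell by 0.86 ± 0.15 and Aurkc, the germline Aurora kinase, rose by 1.61 ± 0.26, with a median of 0.00. Each is 2.86% of that list, against 1.86% lower and 0.511% higher over all genes. After quantile normalization 3 of the mitosis and spindle genes rose and 0 fell, with a median of 0.15. None of 27 p53 targets and cell death genes passed, with 3 at an unadjusted p under 0.05, among them Pmaip1 (NOXA) at -2.95 ± 0.71 (adjusted p = 0.0985).

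Stress genes were among the rises. Of 29 hypoxia and stress-responsive genes 3 rose and 0 fell, or 10.3% against 0.511% of all genes, with a median of 0.01. Ndrg1, induced by hypoxia and metals in other cells, was at 2.24, 3.07, 2.76, 3.15 and 3.10 in clones and at -2.69, -3.98 and -1.06 in IVF embryos, the largest rise among named genes (5.44 ± 0.62, 43.5-fold, adjusted p = 0.0135). Its other 4 probe sets were higher by 0.90 to 4.60 without overlap. Mt2 and Mt1, the metallothioneins that bind zinc and copper, rose by 1.85 ± 0.17 and 1.43 ± 0.13 (adjusted p = 0.00699 and 0.00700). Mt2 was at 0.53, 0.92, 0.88, 0.62 and 0.71 in clones and at -1.14, -1.46 and -0.76 in IVF embryos. Of 34 heat shock and unfolded protein genes Dnajb9 and Calr, chaperones of the endoplasmic reticulum, rose by 0.70 ± 0.08 and 0.97 ± 0.18. They are 5.88% of that list, against 0.511% higher over all genes, and 0 fell, with a median of 0.09. None of 21 immediate early genes passed, with 2 at an unadjusted p under 0.05, and Ier5 had the smallest p (2.29 ± 0.73, adjusted p = 0.193).

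In energy metabolism 3 of 49 respiratory chain genes fell and 1 rose, or 6.12% and 2.04% against 1.86% and 0.511% of all genes. Their median was -0.24. Atp5b, the catalytic subunit of ATP synthase, was at -1.02, -0.74, -0.90, -1.27 and -0.87 in clones and at 0.42, 0.51 and 0.61 in IVF embryos (-1.47 ± 0.12, adjusted p = 0.00553). Cox5a and Cox6c of cytochrome oxidase fell by 1.33 ± 0.19 and 1.63 ± 0.29, and Ndufv3 of complex I rose by 2.09 ± 0.33. Of 21 glycolysis genes Pfkl, a phosphofructokinase, fell by 2.94 ± 0.54 (adjusted p = 0.0479). It is 4.76% of that list, against 1.86% of all genes, and the median was -0.31. Of 43 proteasome genes Psmd13 fell by 1.46 ± 0.23, and Psmb6 and Psma4 rose by 1.45 ± 0.24 and 0.80 ± 0.14. That is 2.33% lower and 4.65% higher, against 1.86% and 0.511% of all genes. Their list's median was -0.07 (0.06 after quantile normalization). Of 39 lysosome genes Atp6v0d1, of the proton pump, fell by 1.96 ± 0.19 and Ctss rose, with a median of -0.20. Each is 2.56% of that list, against 1.86% lower and 0.511% higher over all genes.

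Several large falls lay outside these lists. Syt11, a synaptotagmin of vesicle traffic (chromosome 3, 88744699 to 88775159, GRCm38.p6), was at -0.01, 0.04, -0.04, -0.02 and -0.01 in clones and at 4.24, 4.45 and 4.69 in IVF embryos, and had the smallest adjusted p of all genes (2.21e-05). Oocytes averaged 5.72 ± 0.20 (SD, n = 3), 1-cell clones 4.06 ± 0.60 and 1-cell IVF embryos 1.47 ± 1.39. The 2-cell clones thus lay below the means of these earlier groups. Plk3, a polo-like kinase, was at 0.23, 0.14, -0.03, -0.33 and -0.42 in clones and at 4.01, 3.88 and 4.05 in IVF embryos (-4.06 ± 0.17, adjusted p = 0.000344). Krt28, a keratin of the hair follicle, was at -0.02, -0.06, -0.14, -0.07 and -0.05 in clones and at 4.50, 2.99 and 5.61 in IVF embryos (-4.43 ± 0.53, adjusted p = 0.0147). Lman2, a cargo receptor of the secretory pathway, fell by 4.31 ± 0.34 and Tecpr2, an autophagy gene, by 4.06 ± 0.45. The other probe set of Lman2 differed by -0.68 with overlap. Lrwd1, which binds the origin recognition complex and heterochromatin, fell by 3.81 ± 0.47, and its other probe set differed by -2.27 without overlap. Clptm1 fell by 3.76 ± 0.49, with clone replicate 1 at 1.59 and the other clones between -0.04 and 0.21.

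Genes that decline in IVF embryos between the 1-cell and 4-cell stages also held falls. Jam3, a junctional adhesion molecule, was at -0.02, 0.06, -0.02, 0.00 and -0.03 in clones and at 3.19, 2.75 and 2.47 in IVF embryos (-2.81 ± 0.15, adjusted p = 0.000756). The other probe set of Jam3 differed by -0.05 with overlap. Shb, an SH2 adaptor, fell by 2.98 ± 0.48, Gspt2, a release factor gene, by 2.93 ± 0.53, Zfp830 by 2.85 ± 0.23 and Adamtsl1 by 2.69 ± 0.41. Adamtsl1 had another probe set at 1.33 the other way, and Gspt2 had another at 0.34 the other way. Among rises in this class, Utrn, the dystrophin relative utrophin, was at 0.42, 0.64, 0.99, 0.72 and 0.18 in clones and at -1.30, -1.46 and -1.80 in IVF embryos (2.11 ± 0.20, adjusted p = 0.00730). Atp1b1, a sodium pump subunit, rose by 2.37 ± 0.40 and Sbf2 by 2.17 ± 0.39.

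The rises beyond Ndrg1, Gab1, Edc3 and Etv6 had no common list. Ctss, the lysosomal protease cathepsin S (chromosome 3, 95526786 to 95556405), was at 4.46, 4.55, 4.80, 5.77 and 4.14 in clones and at -0.02, 0.11 and -0.03 in IVF embryos (4.72 ± 0.35, adjusted p = 0.00417). It averaged 0.21 ± 0.25 in 1-cell clones and 0.04 ± 0.05 in 4-cell clones (SD, n = 5 each), both below every 2-cell clone. Pde6a, a phosphodiesterase of photoreceptors, was at 4.74, 5.49, 2.84, 4.07 and 5.38 in clones and at -0.08, 0.00 and -0.02 in IVF embryos (4.54 ± 0.62, adjusted p = 0.0226). Miga1, which promotes mitochondrial fusion, was at 5.36, 4.75, 5.77, 4.26 and 3.67 in clones and at -0.31, 1.58 and 0.98 in IVF embryos, and its other probe set was higher by 1.21 with overlap. The ubiquitin ligase gene Rnf157 rose by 3.97 ± 0.39 and the small GTPase gene Rab29 by 4.11 ± 0.73. Pus7l, of the pseudouridine synthase family, rose by 3.98 ± 0.70 and Mmd2 by 3.35 ± 0.29. Cyrib, an inhibitor of Rac signalling, rose by 3.29 ± 0.60, Dzank1 by 2.84 ± 0.40, Nav1, which binds microtubules, by 2.79 ± 0.42, and Asap1, an Arf GTPase activator, by 2.68 ± 0.39. Of the 30 largest changes 18 genes had more than 1 probe set, and in 16 of them every other probe set had the same sign. Of the 36 other probe sets 33 had the same sign, and 11 of these differed by at least 1 log2 unit.

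The comparisons at the 1-cell and 4-cell stages use other embryos of both groups. Of the 339 genes lower in 2-cell clones, 61 were also lower at the 4-cell stage, which is 18.0% of the 339 and 18.6% of the 328 lower there, against 1.80% of all genes. At that stage 2 of the 339 were higher, Bloc1s2 and Selenos. At the 1-cell stage 13 of them were lower (3.83%, with 2.79% of all genes lower there) and 26 higher (7.67% of the 339 and 4.06% of the 640 higher there, with 3.52% of all genes). The last included Trim28, Nsa2 and Klf17, which thus stood above IVF embryos at 1 cell and below them at 2 cells. Of the 93 higher at the 2-cell stage 6 were higher at the 1-cell stage (6.45%) and 5 at the 4-cell stage (5.38% of the 93 and 5.95% of the 84 higher there, against 0.462% of all genes), and 0 were lower at either. Nav1, the lipid droplet gene Plin2 and the epithelial adhesion gene Epcam were among the last 5. Ddx51 was the gene lower at all 3 stages.

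Of the 8 members of the germline and cancer-testis lists that fell, Gpr50 among them, some were also lower in 4-cell clones. D1Pas1 averaged 0.01 ± 0.15 in 4-cell clones and 3.76 ± 0.73 in 4-cell IVF embryos, and Fmr1nb -3.11 ± 0.65 in clones and 2.44 ± 1.19 in IVF embryos. Both passed there (adjusted p = 0.00418 and 0.00992), as did Sycp1, Mov10l1 and Mageb16 (adjusted p between 0.00992 and 0.0159). Tex12, Gpr50 and Mageb3 differed by -1.02, -1.88 and -0.05 at the 4-cell stage and did not pass (adjusted p between 0.258 and 0.980). At the 1-cell stage none of these 8 passed (adjusted p between 0.109 and 0.999). The keratin gene Krt28 was also lower in 4-cell clones (adjusted p = 0.0237). In blastocysts Mageb16 averaged -0.78 ± 1.29 in clones and 3.52 ± 0.15 in IVF embryos, and D1Pas1 -0.29 ± 0.13 in clones and 0.74 ± 0.46 in IVF embryos (SD, n = 5 and 3).

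**Figure D4:**
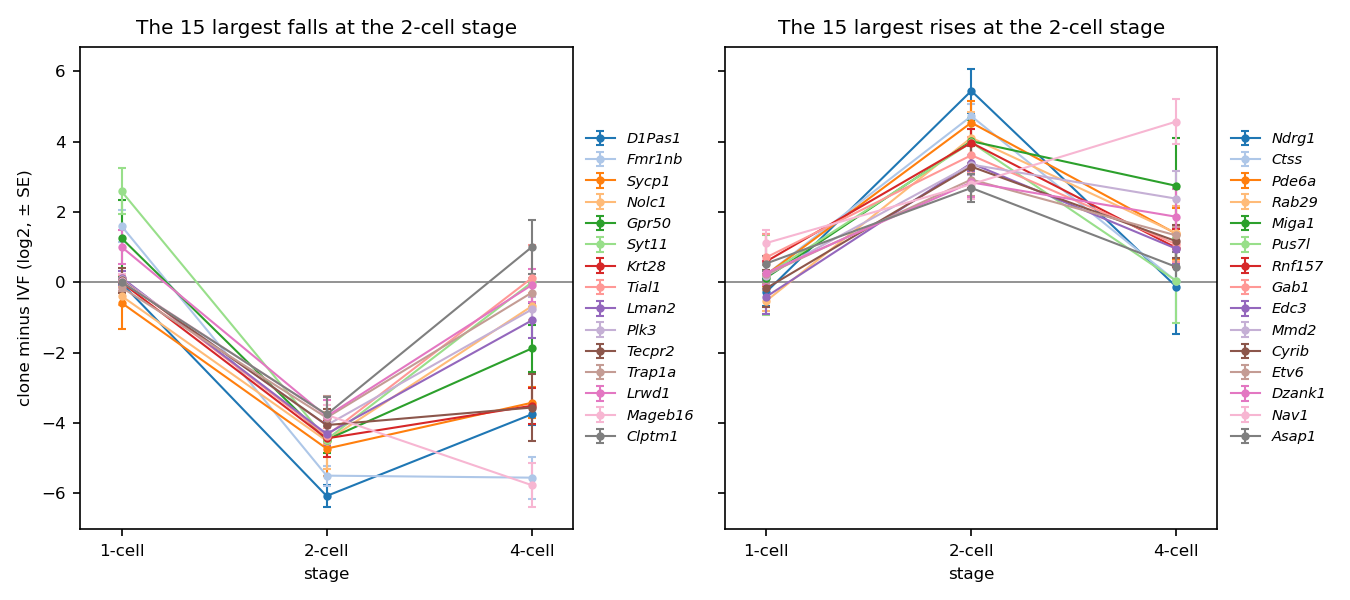
Clone minus IVF difference with its SE in log2 units at the 1-cell, 2-cell and 4-cell stages for the 15 largest falls and the 15 largest rises of the 2-cell stage, from 5 clones and 3 IVF embryos at each stage. D1Pas1 and Fmr1nb remain near -3.75 and -5.55 at the 4-cell stage, while Syt11, Tial1, Ndrg1 and Ctss are near 0 there.

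Whether the difference itself changed between stages was tested as an interaction over 24 arrays. Against the 1-cell stage it was more negative at the 2-cell stage in 961 genes (5.28%) and more positive in 455 (2.50%). Against the 4-cell stage 121 genes were more negative (0.665%) and 112 more positive (0.616%). Syt11 changed against both, by -7.06 and -4.47 (adjusted p = 3.14e-07 and 0.000203), and Ndrg1 by 5.72 and 5.57 (adjusted p = 0.00912 and 0.0397). For Fmr1nb the difference changed by -7.09 against the 1-cell stage (adjusted p = 2.73e-06) and by 0.06 against the 4-cell stage (adjusted p = 1.00). Some of the largest changes belonged to genes with little or no difference at the 2-cell stage. Usp17la, a deubiquitinase gene, was at 6.37, 8.19, 6.70, 9.41 and 6.38 in 2-cell clones and at 7.40, 7.13 and 8.07 in 2-cell IVF embryos, which overlapped. At the 1-cell stage it had averaged -0.46 ± 0.01 in clones and 7.30 ± 0.93 in IVF embryos (SD, n = 5 and 3). It belongs to a family of near-identical copies, so its signal may be shared among them.

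Markers of other cells gave no call at the 2-cell stage. Of 26 Sertoli cell markers 0 passed, with 5 at an unadjusted p under 0.05, and the list averaged 0.393 to 0.693 over the clones and 0.221 to 0.628 over the IVF embryos. Sox9, Amh and Nr5a1, members of this list named after their values were seen, differed by 0.00. As the values are centred, this does not tell whether their RNA was present. Gata4 had the smallest p (-1.17 ± 0.31, adjusted p = 0.132). The marker with the largest difference, Clu, was at 0.74, 3.94, 4.06, 3.88 and 4.67 in clones and at 1.54, 1.06 and -0.07 in IVF embryos, and did not pass (adjusted p = 0.256). Of 14 cumulus cell markers 0 passed, with 1 at an unadjusted p under 0.05, and the list averaged -0.05 to 0.33 in clones and 0.12 to 0.25 in IVF embryos. Nr5a2 had the smallest p among them (-1.86 ± 0.64, adjusted p = 0.234). Neither did any of 16 markers of other testis somatic cells, with 0 at an unadjusted p under 0.05, or of 20 markers of sperm and late germ cells, with 1. Their medians were 0.02 each, and the smallest p-values were those of Myh11 (-0.90 ± 0.38, adjusted p = 0.340) and Tssk6 (-0.80 ± 0.30, adjusted p = 0.282).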

How the data were processed

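Each array held the amplified, biotin-labelled cRNA of 1 embryo on an Affymetrix mouse array. The authors made the log2 values with RMA, per the submitters' processing notes, which give no version. As deposited, they are centred for each probe set by a step that the labels do not mention: exactly 1 array was at 0 in 94.3% of probe sets. The log base is taken from the range of the values. Arrays have no read depth, and their number limits the precision.

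The table's 45101 probe sets comprise 64 controls of the manufacturer, 34945 with a single gene symbol, 932 with several and 9160 with none. For each of 18193 genes, the probe set that varied most (SD across the 51 arrays) was used. The 5 clones and 3 IVF embryos of a stage were compared with limma 3.58.1 (lmFit, eBayes) in R 4.3.3, with Benjamini-Hochberg adjustment over all genes and a threshold of 0.05. Differences are clone minus IVF in log2 units, given with limma's standard error. Stage interactions used the 24 arrays of the 1-, 2- and 4-cell stages. Quality measures were compared by exact permutation. The limma step was tested on simulated data.

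The text names the 15 largest falls and rises without overlap, up to 6 called members of each list, the 5 largest of each sign in each interaction, 5 of each sign in the rising and falling classes, and a few followed genes, leaving out Y-linked genes beyond their own list and entries whose symbol is a mere clone name. Lists with no call give the 1 or 2 members of smallest p. The members, lists and tests were chosen with earlier results of these data known. Genes outside this rule (Ddx51, Mak16, Ddx3x, Eif2s3y, Clu, the further promoter holders, Plin2, Epcam, Selenos, those of the last observations, and Sox9, Amh and Nr5a1) were named after their values were seen. Positions and promoters are from RefSeq, build GRCm38.p6. Clones and IVF embryos of the same replicate number were not treated as pairs: the correlation of their residuals was -0.204, 0.030 and -0.011. Tried alternatives were median centring, quantile normalization, a filter on flat genes, the mean of probe sets, eBayes with trend and robust settings, 1 fit of all 51 arrays, the hybridisation controls as a covariate, a replicate block, and leaving out each array.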

Additional observations from a re-analysis of the deposited data

Results flagged for a closer look

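In 15 named genes 1 clone lay apart from the other 4 by Dixon's criterion for 5 values, among 121 clone groups examined, where chance picks out about 1 in 20. It was the highest clone in Gpr50 (replicate 5, 0.66), Trap1a (replicate 5, -0.13), Clptm1 (replicate 1, 1.59), Tial1 (replicate 4, -3.24), Mageb16 (replicate 1, -4.30), Usp9y (replicate 3, 0.91), Pcna (replicate 2, 1.28), Tssk6 (replicate 5, 0.11), Shb (replicate 2, 3.35) and Sbf2 (replicate 4, 3.44). It was the lowest in Edc3 (replicate 5, 0.25), Rrp7a (replicate 3, -1.04), Eif3i (replicate 4, -2.24), Cnot3 (replicate 1, -1.53) and Klf5 (replicate 2, -3.51). Replicates 1 to 5 were the clone apart in 3, 3, 2, 3 and 4 genes.

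The clone minus IVF difference changed between stages by the interaction test (limma, adjusted p under 0.05). Against the 1-cell stage it was more negative at the 2-cell stage in Fmr1nb (-7.09), Syt11 (-7.06), C1qtnf12 (-6.46), D1Pas1 (-6.05) and Nsa2 (-5.97), and more positive in Usp17la (7.64), Ppil3 (6.89), Rbm25 (6.50), Id2 (6.05) and Ndrg1 (5.72). Of the other 5 probe sets of Rbm25, whose groups all overlapped at the 2-cell stage, 1 was higher in clones (1.83) and 4 were lower (-2.22 to -0.02). Against the 4-cell stage it was more negative in Clptm1 (-4.76), Pcf11 (-4.57), Bloc1s2 (-4.57), Tial1 (-4.48) and Syt11 (-4.47), and more positive in Ndrg1 (5.57), Plp2 (4.86), Ctss (4.70), Oxct1 (4.57) and Mpzl2 (4.49).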

How the results depend on the processing

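The 95 named genes that passed at the 2-cell stage kept their sign under every alternative tried. In the fits without 1 array this was fixed in advance, since the groups of these genes do not overlap. The filter on flat genes, the trend and robust settings and the fit of all 51 arrays keep the same group means, so they could not change a sign either. Of them, 94 also passed with arrays centred on their medians, 65 after quantile normalization, 68 with the mean of a gene's probe sets, 76 with trend and robust settings and 86 in 1 fit of all 51 arrays. Of the named genes that did not pass, Dppa3 (0.12), Mbd4 (1.45), Nr5a2 (1.79), Tnfaip6 (-0.05) and Nanog (-0.49) changed sign with the hybridisation controls as a covariate, Dnmt1 (0.13) with the mean of its probe sets and Nanog (-0.16 to -0.07) without IVF replicate 1 or clone replicates 3 or 5. Main counts were 93 genes higher and 339 lower. Leaving out the flattest 30% of genes gave 162 and 524, with fewer genes tested, and the fit of all 51 arrays gave 513 and 1402. Quantile normalization gave 161 lower. The change against the 1-cell stage had 190 positive and 215 negative genes after quantile normalization and 721 positive with all 51 arrays, and that against the 4-cell stage had 310 and 223 and 216 and 264. The cause was not tested. Hybridisation controls as a covariate left 0 higher and 0 lower, with 869 genes at an unadjusted p under 0.05 in limma. That fit can hardly tell group and controls apart, since the controls differ between the groups without overlap. With the replicate number as a block, 0 genes were higher and 0 lower (1943 at an unadjusted p under 0.05), and the interactions had 250 and 561 genes against the 1-cell stage and 10 and 4 against the 4-cell stage. The numbers do not pair these embryos.

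With 1 array left out, 43 to 77 genes were higher and 162 to 250 lower. The fewest were 43 higher without IVF replicate 2 and 162 lower without clone replicate 2, and the count of falls shrank by over 1.5 times without IVF replicates 2 or 3 (195 and 207) or clone replicates 2, 3, 4 or 5 (162, 177, 198 and 169), and that of rises without IVF replicates 1 or 2 (58 and 43) or clone replicates 2, 3 or 5 (54, 51 and 54). These fits hold fewer arrays. Of the 95 named genes 33 passed in all 8 of these fits and 5 in none. The interactions ranged over 319 to 453 and 808 to 934 against the 1-cell stage and 71 (without IVF replicate 2) to 140 and 109 to 166 against the 4-cell stage. The IVF classes held 2602 to 2821 rising and 2914 to 3067 falling genes, of which 153 to 162 and 42 to 47 were lower in clones. Signal over background was not judged, since the values are centred.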

Other observations

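Chromosomes held unequal shares of the genes that passed, a pattern chosen after the values were seen and not tested. On chromosome 15, 27 of 724 genes were lower in clones (3.73%) and 8 higher (1.10%). Chromosomes 5 and 11 had 3.12% and 2.98% lower, while chromosomes 12 and 6 had 0.482% and 0.706%.

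Genes lower at the 2-cell stage but higher at the 1-cell stage included several outside the lists, also chosen after their values were seen. Cdc42bpb, a kinase that acts on the cytoskeleton, differed by 2.41 at the 1-cell stage and -2.39 at the 2-cell stage. Mafg, a small Maf transcription factor, differed by 1.94 and -1.99, and Smg6, an endonuclease of nonsense-mediated decay, by 2.70 and -1.53. Ppp1r15a, which restarts translation after stress, differed by 1.86 and -1.49. Each passed at both stages (limma, adjusted p between 0.00162 and 0.0262).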
